A study of Homo sapiens with 12 samples.

Results

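The expression of 10 genes of the NF-κB system was followed across 4 groups of A549 cells, a human cell line from a lung adenocarcinoma: the subunit genes RELA, RELB, NFKB1 and NFKB2, the IκB-family genes NFKBIA, NFKBIE and BCL3, and the feedback and target genes TNFAIP3, BIRC3 and ICAM1. The 10 were chosen by symbol for their place in the pathway, from 60676 gene rows in the count table, and all 10 were among the 16192 genes with enough counts to test. Earlier results of these data were known when they were chosen, so their counts beside those of all genes are a description. The cells had been transduced with a lentiviral expression construct, either an empty pCDH-EF1a-PURO vector (Co.vec) or one for LETS1, a long non-coding RNA, and had been selected with puromycin. Each population was then given the cytokine TGF-β (5 ng/mL) or its buffer alone for 4 h, with 3 libraries in each of the 4 groups, and no untransduced cells were compared here. The design text calls replicates biological without stating if cells were transduced separately for each, so p-values measure only the spread between these samples, which may be technical. Gene counts summed to between 19705135 and 20351043 fragments in a library, and replicate counts differed by 2.16 to 5.24 times the variance of counting alone (chi-square per degree of freedom, 12 pairs).

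NF-κB is a family of dimeric transcription factors. In the canonical branch, RELA with p50, the processed product of NFKB1, is held in the cytoplasm by IκBα (NFKBIA) or IκBε (NFKBIE) until the IKK kinase marks the inhibitor for destruction. In the non-canonical branch, RELB is released when the NFKB2 precursor p100 is cut to p52. Several of the factor's own targets shut it down again, among them NFKBIA and TNFAIP3, which encodes the ubiquitin-editing protein A20, so levels of these RNAs are often read as a record of recent activity. Lung epithelial cells use the pathway in the response to TNF, interleukin-1 and microbial products.

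Because several of these genes are textbook targets of the factor they encode or restrain, the DNA before their RefSeq start sites is shown first. RefSeq promoter windows (GRCh38.p14) were held for 8 of the 10 members, RELB and NFKBIE not among them, and the 250 bases before each start were searched on both strands for the 10-base κB consensus and for GGAAATTCC, which can overlap it. The consensus matched in 5 of the 8 members, at 11 places in all. Some genes have several windows: 6 of the members' 12 windows held it, against 5.21% of all 35116 windows. GGAAATTCC matched in 3 of the 12 windows (NFKBIA, NFKB1 and ICAM1) and in 0.413% of all windows. It was chosen after the NFKBIA and ICAM1 windows had been seen, so the matches in those windows were known in advance. Matches are in capitals below, written 5′ to 3′ on the gene's strand. NFKB2, whose windows also hold consensus matches, is not printed. Stretches end where the first annotated exon begins or are cut to 30 bases around the first matches. The TNFAIP3 and ICAM1 stretches precede the RefSeq start used, but lie within the gene bounds that GENCODE 29 gives. A match describes letters and is not a measured binding site.

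NFKBIA (chr14:35404750-35404999, minus strand): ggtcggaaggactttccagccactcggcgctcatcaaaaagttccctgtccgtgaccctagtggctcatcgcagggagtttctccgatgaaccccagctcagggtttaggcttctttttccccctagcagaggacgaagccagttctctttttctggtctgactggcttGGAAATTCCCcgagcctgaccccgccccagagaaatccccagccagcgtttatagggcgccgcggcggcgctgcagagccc
NFKB1 (chr4:102501109-102501328, plus strand): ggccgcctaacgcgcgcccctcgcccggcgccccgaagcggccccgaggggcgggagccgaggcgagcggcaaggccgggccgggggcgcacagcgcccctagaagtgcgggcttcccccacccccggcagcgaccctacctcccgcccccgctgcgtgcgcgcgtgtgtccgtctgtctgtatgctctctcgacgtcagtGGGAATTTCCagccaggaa
BIRC3 (chr11:102317234-102317449, plus strand): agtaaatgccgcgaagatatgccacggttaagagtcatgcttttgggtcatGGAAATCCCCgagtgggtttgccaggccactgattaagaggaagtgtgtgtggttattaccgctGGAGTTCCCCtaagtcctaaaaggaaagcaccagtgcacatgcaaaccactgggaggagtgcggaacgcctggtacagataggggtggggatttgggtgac
TNFAIP3 (chr6:137867188-137867217, plus strand): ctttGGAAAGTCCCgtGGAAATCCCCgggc
ICAM1 (chr19:10270923-10270952, plus strand): tgctttagcttGGAAATTCCggagctgaag

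On GRCh38 in GENCODE 29 the subunit genes are RELA (ENSG00000173039, chr11:65653596-65663094), RELB (ENSG00000104856, chr19:45001430-45038198), NFKB1 (ENSG00000109320, chr4:102501329-102617302) and NFKB2 (ENSG00000077150, chr10:102394110-102402529). The IκB-family genes are NFKBIA (ENSG00000100906, chr14:35401511-35404749), NFKBIE (ENSG00000146232, chr6:44258166-44265788) and BCL3 (ENSG00000069399, chr19:44747705-44760044). The feedback and target genes are TNFAIP3 (ENSG00000118503, chr6:137867188-137883312), BIRC3 (ENSG00000023445, chr11:102317450-102339403) and ICAM1 (ENSG00000090339, chr19:10270835-10286615). Other genes overlap 0.16% of the exon bases of RELA, 1.88% of TNFAIP3 and 2.0% of BCL3.

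The genes whose windows hold such matches did not move as one. With TGF-β in Co.vec cells NFKB1, TNFAIP3 and ICAM1 rose, BIRC3 fell, and NFKBIA and NFKB2, whose windows also hold consensus matches, did not pass the test. RELA and BCL3, whose windows hold neither motif, rose and fell respectively.

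Levels were compared between genes as CPM per kilobase of exon (CPM being counts scaled to TMM-adjusted library size, divided by exon length in GENCODE 29). In Co.vec cells in buffer NFKBIA stood highest at 19.9 ± 0.578 (SD, n = 3 in this and every group), followed by BCL3 at 18.6 ± 0.515, RELA at 16.9 ± 0.494 and NFKB2 at 11.5 ± 0.881. BIRC3 (5.27 ± 0.433) and NFKB1 (5.16 ± 0.178) were next and differed by less than their spread, as did RELB (3.31 ± 0.193) and NFKBIE (3.22 ± 0.257). TNFAIP3 (1.61 ± 0.267) and ICAM1 (0.634 ± 0.152) were lowest. After TGF-β in Co.vec cells RELA (20.6 ± 0.987) and NFKBIA (19.5 ± 1.52) differed by less than their spread at the top, BCL3 (12.2 ± 0.920) stood beside NFKB2 (11.6 ± 1.34), and RELB (6.18 ± 0.344) had passed BIRC3 (3.85 ± 0.221). ICAM1, an adhesion receptor for leukocytes, was the lowest of the 10 in every group, with 30 to 85 counts per library against 1806 to 2369 for RELA.

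**Figure D1:**
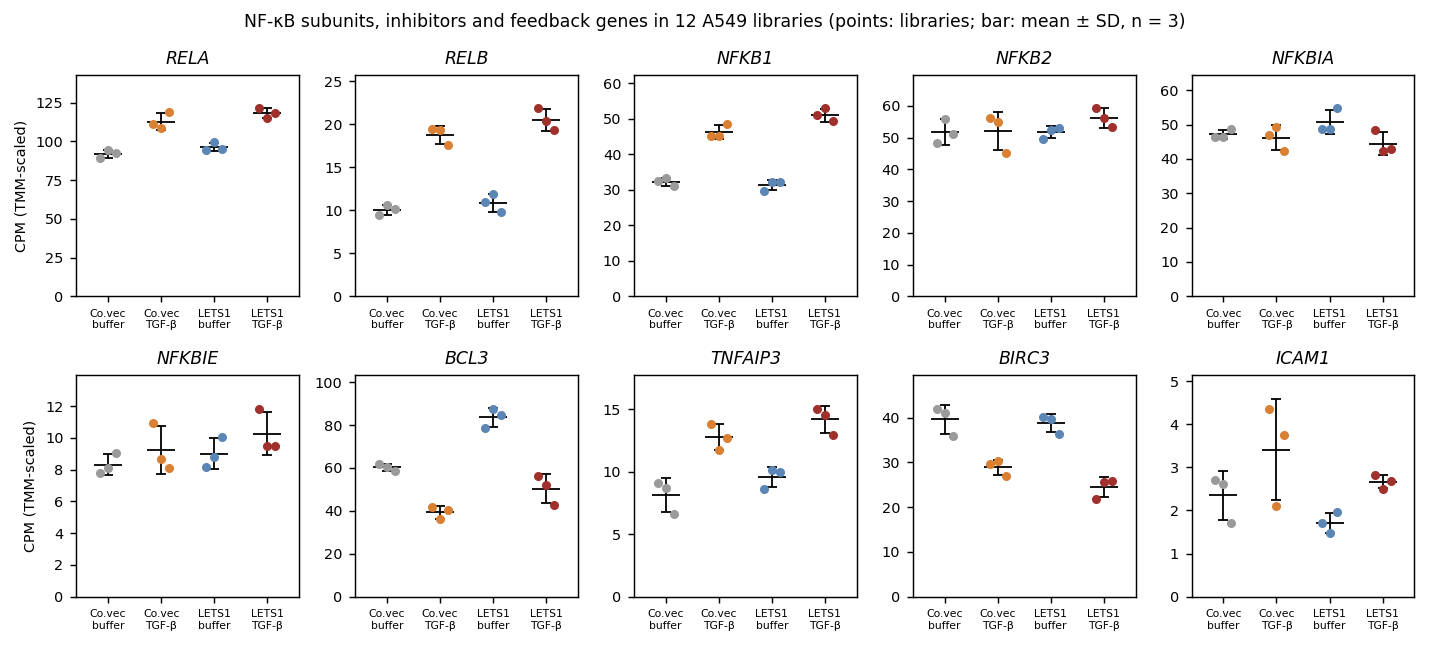
Level of each member in CPM (y axis, TMM-scaled, from 0) in the 4 groups (x axis), with 1 point per library and bars for mean ± SD of 3 libraries. RELA, RELB, NFKB1 and TNFAIP3 stand higher in both TGF-β groups, BCL3 and BIRC3 stand lower there, and BCL3 is highest in LETS1 cells in buffer. NFKB2, NFKBIA and NFKBIE have smaller log2 fold changes with TGF-β, and NFKBIA stands lower with it in LETS1 cells.

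How the ligand alters these RNAs without the LETS1 construct is asked in Co.vec cells. Of the 10 members, 5 rose, 2 fell and 3 did not pass (edgeR quasi-likelihood test, Benjamini-Hochberg adjusted p under 0.05 over all genes tested), where 21.1% of all tested genes rose and 18.6% fell. The members' median log2 fold change was 0.22 and that of all genes tested -0.02. The rises were the subunit genes RELB, NFKB1 and RELA with TNFAIP3 and ICAM1, and the falls were BCL3 and BIRC3. The 3 libraries of each group did not overlap for 4 members that were higher and 2 that were lower, as was so for 24.4% and 22.9% of all tested genes. In LETS1 cells the ligand comparison, which shares no library with the first, gave 5 rises and 3 falls among the 10, where 19.7% of all tested genes rose and 19.1% fell, and a median log2 fold change of 0.24 (all genes -0.02). There the groups did not overlap for 6 higher and 3 lower members, against 24% and 24.9% of all tested genes. The same 5 members rose and the same 2 fell in both, where 16.6% of all tested genes rose in both and 13% fell in both.

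RELB, the subunit of the non-canonical branch, had the largest rise. It stood at 9.44, 10.6 and 10.1 CPM in the Co.vec buffer libraries and at 19.4, 19.3 and 17.6 CPM with TGF-β. In LETS1 cells the values were 10.9, 11.9 and 9.82 CPM in buffer and 21.8, 20.3 and 19.3 CPM with TGF-β. All 6 libraries given TGF-β lay above all 6 in buffer. RELB thus rose by 0.90 on the log2 scale (SE 0.087, edgeR adjusted p = 2.97e-11) in Co.vec cells and 0.91 (SE 0.084, 9.93e-12) in LETS1 cells, and the responses differed by 0.01 (95% interval -0.24 to 0.26).

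NFKB1, which encodes the p105 precursor of p50, stood at 32.5, 33.3 and 31.1 CPM in Co.vec buffer libraries and at 45.2, 45.0 and 48.6 CPM with TGF-β. LETS1 cells went from 29.7, 32.3 and 32.04 CPM to 50.9, 52.9 and 49.2 CPM. The buffer and TGF-β libraries did not overlap in either population, and the 3 highest values of all 12 were those of LETS1 cells with TGF-β. Its log2 fold change was 0.52 (SE 0.059, edgeR adjusted p = 1.66e-09) in Co.vec and 0.70 (SE 0.058, 5.19e-13) in LETS1 cells, and the difference of 0.18 between them did not pass (95% interval 0.01 to 0.35 before adjustment, adjusted p = 0.574).

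RELA, the transactivating subunit of the canonical dimer, was the most abundant subunit transcript. It stood at 89.3, 94.6 and 92.4 CPM in Co.vec buffer libraries and at 111.0, 108.6 and 118.9 CPM with TGF-β. LETS1 cells went from 94.4, 99.4 and 95.4 CPM to 121.4, 115.2 and 118.3 CPM. The groups did not overlap, and the log2 fold change was 0.29 in each population (SE 0.047 in each, edgeR adjusted p = 2.7e-06 in Co.vec and 2.18e-06 in LETS1 cells).

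NFKB2, the precursor of p52, was the subunit gene among the 10 that did not pass in either population. Its Co.vec values were 48.2, 56.0 and 51.1 CPM in buffer and 56.3, 54.8 and 45.2 CPM with TGF-β, and the groups overlapped. A log2 fold change of 0.01 resulted (95% interval -0.13 to 0.14, edgeR adjusted p = 0.938). In LETS1 cells its values were 49.6, 52.4 and 53.1 CPM in buffer and 59.2, 56.1 and 53.2 CPM with TGF-β, and the groups did not overlap, by a narrow gap between the replicates numbered 3. There the log2 fold change was 0.12 (95% interval -0.01 to 0.26, adjusted p = 0.155), and it passed narrowly when no filter on low counts was applied (0.15, adjusted p = 0.0499).

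The balance between subunit transcripts was therefore set out per library as shares of the summed CPM per kilobase of RELA, REL, RELB, NFKB1 and NFKB2. The sum itself was 36.0, 39.0 and 36.9 in Co.vec buffer libraries and 46.9, 46.1 and 45.8 with TGF-β, and in LETS1 cells 37.2, 39.3 and 38.2 against 51.2, 49.2 and 48.2. RELB made up 8.65% to 9.03% of it in Co.vec buffer libraries and 12.6% to 13.8% with TGF-β. NFKB2 made up 29.9% to 31.99% in buffer and 22.0% to 26.7% with TGF-β in the same cells. In LETS1 cells RELB went from between 8.46% and 9.95% to between 13.2% and 14.0%, and NFKB2 from between 29.7% and 31.0% to between 24.6% and 25.8%. The buffer and TGF-β libraries did not overlap for RELB, NFKB1 or NFKB2 in either population. REL, the c-Rel subunit of lymphoid cells, was at most 1.60% in any library, and its own log2 fold change with TGF-β was 0.02 in Co.vec cells (edgeR adjusted p = 0.94). These shares are a description of the values above and were not tested.

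**Figure D2:**
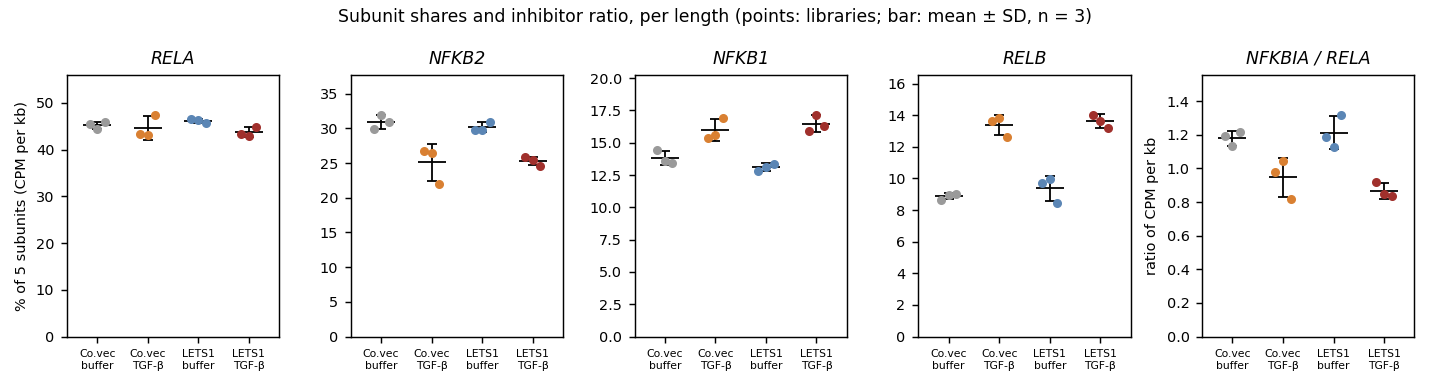
Share of each subunit transcript in the summed CPM per kilobase of 5 subunit genes (first 4 panels, percent, y axes from 0), and the ratio of NFKBIA to RELA on the same scale (last panel), by group, with 1 point per library and bars for mean ± SD of 3 libraries. RELB shares lie at 8.46% to 9.95% in the buffer libraries and at 12.6% to 14.0% with TGF-β, and NFKB2 shares lie lower with TGF-β.

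Among the IκB-family genes, BCL3 changed most with the ligand, and NFKBIA and NFKBIE had smaller log2 fold changes. NFKBIA, the fast-responding IκBα, stood at 46.3, 46.5 and 48.7 CPM in Co.vec buffer libraries and at 47.1, 49.3 and 42.3 CPM with TGF-β, with overlapping groups. Its log2 fold change was -0.03 (95% interval -0.16 to 0.10, edgeR adjusted p = 0.751). In LETS1 cells it stood at 48.6, 48.8 and 54.7 CPM in buffer and at 48.4, 42.3 and 42.8 CPM with TGF-β, all below the buffer libraries. That fall of 0.19 on the log2 scale (SE 0.063, edgeR adjusted p = 0.0146) lost its call when LETS1 buffer replicate 3 (-0.13, adjusted p = 0.144), LETS1 TGF-β replicate 2 (-0.15, 0.0975) or LETS1 TGF-β replicate 3 (-0.16, 0.0758) was left out. The difference between the 2 responses, -0.16, did not pass (adjusted p = 0.718).

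Since RELA rose while NFKBIA did not, the ratio of NFKBIA to RELA in CPM per kilobase was lower with the ligand. It was 1.19, 1.13 and 1.21 in Co.vec buffer libraries and 0.977, 1.05 and 0.818 with TGF-β, and 1.19, 1.13 and 1.32 against 0.918, 0.845 and 0.833 in LETS1 cells. All 6 buffer libraries lay above all 6 with TGF-β. The ratio concerns RNA, and protein was not measured here.

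NFKBIE, which encodes IκBε, stood at 7.81, 8.08 and 9.07 CPM in Co.vec buffer libraries and at 10.9, 8.66 and 8.13 CPM with TGF-β. The groups overlapped, and the log2 fold change was 0.15 (95% interval -0.08 to 0.39, edgeR adjusted p = 0.318). In LETS1 cells it was 0.19 (95% interval -0.04 to 0.41, adjusted p = 0.19).

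BCL3, a nuclear IκB-family protein that binds p50 and p52 homodimers, fell with the ligand. It stood at 61.8, 60.5 and 58.5 CPM in Co.vec buffer libraries and at 41.8, 36.1 and 40.3 CPM with TGF-β. LETS1 cells went from 78.7, 87.7 and 84.5 CPM to 56.2, 51.9 and 42.9 CPM. The groups did not overlap in either population. On the log2 scale BCL3 stood at -0.61 (SE 0.072, edgeR adjusted p = 4.35e-08) in Co.vec and -0.73 (SE 0.069, 4.55e-10) in LETS1 cells, with a difference of -0.12 that did not pass (95% interval -0.32 to 0.08, adjusted p = 0.877).

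The feedback genes split. TNFAIP3 stood at 9.14, 8.67 and 6.61 CPM in Co.vec buffer libraries and at 13.9, 11.7 and 12.7 CPM with TGF-β, and in LETS1 cells at 8.64, 10.2 and 9.96 against 15.1, 14.6 and 13.0 CPM. All 6 TGF-β libraries lay above all 6 in buffer. The log2 fold change was 0.65 (SE 0.106, edgeR adjusted p = 3.2e-06) in Co.vec and 0.57 (SE 0.101, 1.43e-05) in LETS1 cells.

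BIRC3, which encodes the ubiquitin ligase cIAP2, moved the other way. It stood at 42.0, 40.9 and 35.9 CPM in Co.vec buffer libraries and at 29.5, 30.2 and 27.1 CPM with TGF-β, and in LETS1 cells at 40.1, 39.7 and 36.4 against 21.8, 25.7 and 25.9 CPM. All 6 TGF-β libraries lay below all 6 in buffer. The log2 fold change was -0.45 (SE 0.069, edgeR adjusted p = 9.86e-07) in Co.vec and -0.66 (SE 0.071, 4.16e-10) in LETS1 cells, and the difference of -0.21 did not pass (adjusted p = 0.606).

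ICAM1 rose from a low level, and its call was fragile. It stood at 2.72, 2.63 and 1.70 CPM in Co.vec buffer libraries and at 4.37, 2.11 and 3.76 CPM with TGF-β, where the groups overlapped, and at 1.71, 1.47 and 1.95 against 2.82, 2.51 and 2.69 CPM in LETS1 cells, where they did not. The log2 fold change was 0.54 (SE 0.202, edgeR adjusted p = 0.0323) in Co.vec and 0.64 (SE 0.225, 0.022) in LETS1 cells. In Co.vec cells it did not pass with DESeq2 (adjusted p = 0.0734) or without buffer replicate 3 (0.36, adjusted p = 0.194), TGF-β replicate 1 (0.33, 0.253) or TGF-β replicate 3 (0.47, 0.108). In LETS1 cells it did not pass without buffer replicate 1 (adjusted p = 0.0548), buffer replicate 2 (0.0887), TGF-β replicate 1 (0.0651) or TGF-β replicate 3 (0.0524). Antisense genes overlap 22.0% and 1.65% of its exon bases, each with at most 2 counts in a library. The strand setting is not known, so fragments of the shared bases may be missing from the ICAM1 count.

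The comparison of LETS1 with Co.vec asks how these genes differ between cells with the LETS1 construct and cells with the empty vector. Of the 10 members 1 rose and 0 fell in buffer, where 8.57% of all tested genes rose and 6.56% fell (edgeR quasi-likelihood test), and 2 members had an unadjusted p under 0.05, as had 26.5% of all tested genes. With TGF-β 1 rose and 1 fell, where 7.58% of all tested genes rose and 6.5% fell, and 3 members had an unadjusted p under 0.05, as had 25.9% of all tested genes. The members' median log2 fold change was 0.09 in buffer and 0.12 with TGF-β (all genes 0.01 and -0.00). The groups did not overlap for 1 higher member in buffer (16.8% of all tested genes) and for 2 higher and 1 lower with TGF-β (14.5% and 14.2%). BCL3 was the rise in both comparisons, while 4.77% of all tested genes rose in both. These comparisons share no library, but both set LETS1 against Co.vec cells within 1 fit.

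From the values above, the LETS1 libraries in buffer, at 78.7 to 87.7 CPM, held more BCL3 than any other library. The log2 fold change against Co.vec was 0.47 in buffer (SE 0.067, edgeR adjusted p = 4.27e-06) and 0.35 with TGF-β (SE 0.074, 0.00095), and in neither did the groups overlap. With the ligand, LETS1 replicate 3, at 42.9 CPM, stood close to the highest Co.vec library at 41.8 CPM. BIRC3 was the fall with TGF-β, by 0.24 on the log2 scale (SE 0.074, edgeR adjusted p = 0.0218). It lost its call without Co.vec TGF-β replicate 1 (-0.23, adjusted p = 0.0715), Co.vec TGF-β replicate 2 (-0.21, 0.098) or LETS1 TGF-β replicate 1 (-0.17, 0.176), and in buffer it stood at -0.03 (adjusted p = 0.819).

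NFKB1 with TGF-β stood at 0.14 against Co.vec (95% interval 0.03 to 0.25, edgeR adjusted p = 0.0935). Its groups did not overlap, as was so for 14.5% of all tested genes in that direction, and it passed without Co.vec TGF-β replicate 3 (0.18, adjusted p = 0.0467). RELA, RELB, NFKB2, NFKBIA, NFKBIE and TNFAIP3 had log2 fold changes between -0.06 and 0.23 over both comparisons, with adjusted p values from 0.161 to 0.988. ICAM1 stood at -0.46 in buffer (95% interval -0.92 to 0.01, adjusted p = 0.201) and at -0.35 with TGF-β (0.263), and the latter passed without Co.vec TGF-β replicate 2 (-0.61, 0.0254) and stood at -0.14 (0.756) without Co.vec TGF-β replicate 1.

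**Figure D3:**
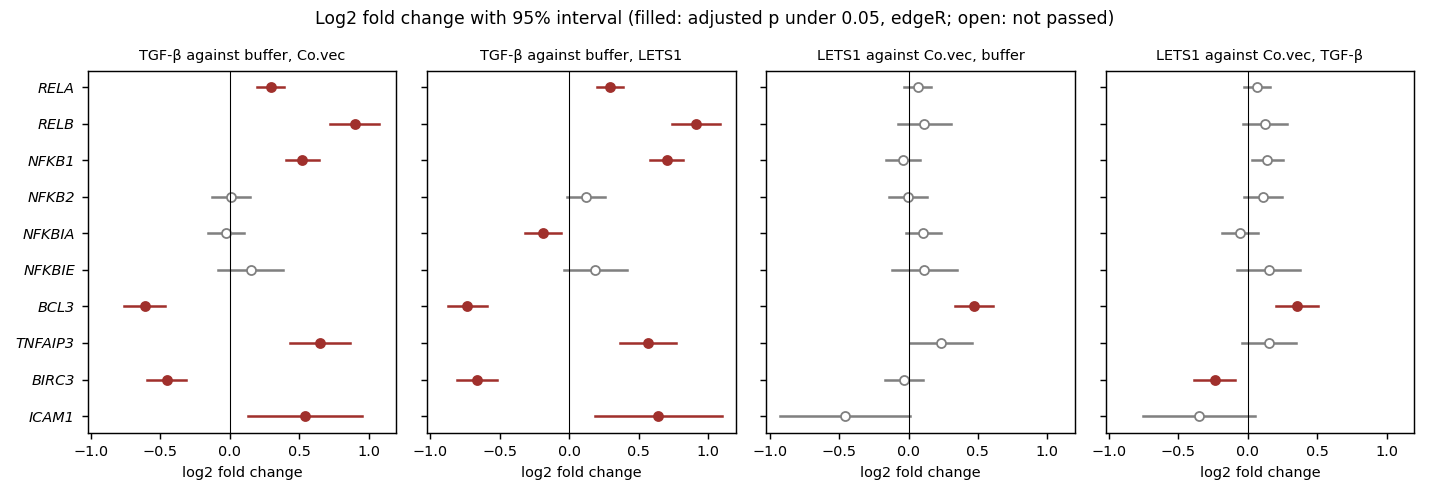
Log2 fold change of the 10 members (x axis) with its 95% interval in the 4 two-group comparisons (panels), filled where the adjusted p was under 0.05 in edgeR. Both ligand panels show RELB farthest to the right, at 0.90 and 0.91, and BCL3 and BIRC3 to the left, while in the LETS1 panels BCL3, at 0.47 and 0.35, is the rise.

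The interaction, the ligand response in LETS1 cells minus that in Co.vec cells, asks whether the response differed between the populations. In edgeR 0 of the 10 members passed, where 0.679% of all tested genes did, and 2 members, NFKB1 (0.18) and BIRC3 (-0.21), had an unadjusted p under 0.05, as had 7.92% of all tested genes. With DESeq2 0 of the 10 passed as well. The standard errors of the 10 differences ran from 0.067 for RELA to 0.303 for ICAM1, whose difference of 0.10 had a 95% interval of -0.51 to 0.72.

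Other genes of the pathway, 139 in 5 lists, were counted in the same fits, and 118 had enough counts to test. The lists were written from general knowledge, but with earlier results of these data known. Their counts beside those of all tested genes are thus a description. With TGF-β in Co.vec cells 52 of the 118 rose and 15 fell, and in LETS1 cells 55 rose and 23 fell, where 21.1% and 18.6% of all tested genes rose and fell in Co.vec cells and 19.7% and 19.1% in LETS1 cells. Of the 118, 58 were called in the same direction in both populations, as were 29.6% of all tested genes, and 1, the early response gene KLF6, in opposite directions. With LETS1 22 rose and 8 fell in buffer, where 8.57% and 6.56% of all tested genes did, and 14 rose and 11 fell with TGF-β, where 7.58% and 6.5% did. Without LETS1 TGF-β replicate 2 these 11 falls numbered 7.

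Among the other subunits and IκB proteins, 0 of 7 rose and 1 fell with TGF-β in each population (list medians -0.07 and -0.09). The fall was NFKBIZ, which encodes the nuclear protein IκBζ and is, like BCL3, an atypical family member. It went from 19.1 ± 1.80 to 11.6 ± 0.795 CPM in Co.vec cells (n = 3; log2 fold change -0.73, edgeR adjusted p = 2.47e-08) and from 30.3 ± 1.13 to 16.8 ± 2.41 CPM in LETS1 cells (-0.85, 3.55e-11). It stood higher in LETS1 than in Co.vec cells, by 0.66 in buffer (edgeR adjusted p = 3.19e-08) and by 0.54 with TGF-β (4.41e-05). Its 4 group means stood in the same order as those of BCL3, highest in LETS1 cells in buffer and lowest in Co.vec cells with TGF-β. NFKBIZ was also the 1 rise of this list with LETS1 in each comparison, where 0 fell. Of all tested genes 8.57% rose and 6.56% fell with LETS1 in buffer, and 7.58% and 6.5% with TGF-β.

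Among kinases and adaptors, 17 of 33 rose and 1 fell with TGF-β in Co.vec cells, and 18 rose and 4 fell in LETS1 cells (medians 0.16 and 0.16, against -0.02 for all tested genes in each). The shares of all tested genes that rose and fell with TGF-β are 21.1% and 18.6% in Co.vec and 19.7% and 19.1% in LETS1 cells, for this and the next 3 lists. Those that rose and fell with LETS1 are 8.57% and 6.56% in buffer and 7.58% and 6.5% with TGF-β. The largest rises were those of IRAK2, a kinase of the interleukin-1 receptor complex, at 1.28 and 1.68, and CARD10, a scaffold upstream of IKK, at 0.80 and 0.77. RBCK1, of the linear ubiquitin complex, fell by 0.15 in Co.vec cells (adjusted p = 0.00707, 0.0681 without buffer replicate 3, which left 0 falls in this list) and by 0.22 in LETS1 cells, and TRAF2, an adaptor of TNF receptors, fell by 0.26 in LETS1 cells. Of the IKK complex itself, the regulatory subunit gene IKBKG rose by 0.40 and 0.30, and the kinase gene IKBKB stood at -0.11 (adjusted p = 0.12) in Co.vec cells and fell by 0.21 in LETS1 cells (0.00416). CHUK stood at 0.13 (0.057) and 0.15 (0.028), and its call in LETS1 cells was lost without any 1 of 4 libraries of the comparison, buffer replicates 1 and 2 and TGF-β replicates 2 and 3 (0.0669 to 0.141). With LETS1 in buffer 2 of the 33 rose, RIPK2 (0.29) and RBCK1 (0.27), and 0 fell. With LETS1 under TGF-β 3 rose and 3 fell, IRAK2 (0.41) and RBCK1 (0.20) among the rises and TRAF5 (-0.37) and TANK (-0.18) among the falls. The falls numbered 1 without Co.vec TGF-β replicate 1, and TANK lost its call without that library (adjusted p = 0.136), LETS1 TGF-β replicate 1 (0.0951) or LETS1 TGF-β replicate 2 (0.155) and with DESeq2 (0.054).

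Among 13 negative regulators 7 rose and 0 fell with TGF-β in Co.vec cells and 9 rose and 0 fell in LETS1 cells (medians 0.16 and 0.19). ITCH, a ubiquitin ligase that works with A20, rose by 0.53 and 0.48, and PDLIM2 by 0.41 and 0.40. In Co.vec cells PDLIM2 lost its call without buffer replicate 2 (edgeR adjusted p = 0.0993) or TGF-β replicate 2 (0.0816). ZC3H12A, an RNase that degrades cytokine messages, rose with TGF-β from 31.4 ± 0.688 to 45.3 ± 1.25 CPM in Co.vec cells (n = 3; log2 fold change 0.53) and stood at 48.7 ± 5.24 and 44.7 ± 4.95 CPM in LETS1 cells (-0.12, edgeR adjusted p = 0.164). In buffer ZC3H12A stood higher in LETS1 than in Co.vec cells by 0.63, the 1 rise of the list there. In the same comparison 2 fell, TAX1BP1 by 0.17 (adjusted p = 0.0128, 0.0841 without LETS1 buffer replicate 2, which left 1 fall). The rises numbered 2 without Co.vec buffer replicate 1. With LETS1 under TGF-β 0 of the 13 passed in either direction in edgeR.

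Among 27 receptors and ligands 11 rose and 2 fell with TGF-β in Co.vec cells, and 12 rose and 5 fell in LETS1 cells (medians 0.06 and 0.24). Among genes with a mean of at least 1 CPM in the higher group, the largest rises were those of IL1A, encoding interleukin-1α, from 0.265 ± 0.0778 to 1.12 ± 0.0873 CPM in Co.vec cells (n = 3; log2 fold change 2.06) and 2.46 in LETS1 cells, and of TNFRSF12A, the TWEAK receptor gene, from 70.7 ± 4.94 to 253.7 ± 21.4 CPM (1.84) and 1.54 in LETS1 cells. TNFSF10, encoding TRAIL, fell by 1.03 and 0.79 (the latter 0.53, adjusted p = 0.0608, without LETS1 TGF-β replicate 3). IL1R1, the interleukin-1 receptor gene, fell by 0.36 in Co.vec cells and by 0.37 in LETS1 cells. TLR1 fell by 0.52 in LETS1 cells (adjusted p = 0.0411) and did not pass with DESeq2 (0.0967), with no filter on low counts (0.0861) or without any 1 of LETS1 buffer replicates 1 and 2 and LETS1 TGF-β replicates 2 and 3 (0.0528 to 0.237). The 5 falls in LETS1 cells were 3 with DESeq2, 3 with no filter on low counts, 3 without LETS1 buffer replicate 2 or LETS1 TGF-β replicate 2, and 2 without LETS1 TGF-β replicate 3. With LETS1, 2 of the 27 rose and 3 fell in buffer, where 8.57% and 6.56% of all tested genes did. With TGF-β 1 rose and 4 fell, where 7.58% and 6.5% did. TLR1 was among these falls (-0.60, edgeR adjusted p = 0.0424). Its call was lost with DESeq2 (0.106), no filter on low counts (0.0524) or the replicate block (0.0507). The same was so without any 1 of Co.vec TGF-β replicates 2 and 3 and LETS1 TGF-β replicates 2 and 3 (0.0537 to 0.23). TLR4, the endotoxin receptor gene, rose from 1.72 ± 0.165 to 4.81 ± 0.410 CPM in buffer (n = 3; log2 fold change 1.48, edgeR adjusted p = 9.19e-10) and by 1.69 with TGF-β, while TNFSF15 fell by 1.04 and 0.87. EDAR fell by 1.83 in buffer, from 0.597 ± 0.134 to 0.163 ± 0.0744 CPM (n = 3), under 1 CPM in both groups. With TGF-β it fell by 1.21, from 1.61 ± 0.256 to 0.693 ± 0.125 CPM. TNFRSF12A rose by 0.31 and TLR6 fell by 0.33 with LETS1 in buffer.

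Among 38 target genes TGF-β moved members both ways, with 17 rises and 11 falls in Co.vec cells and 16 rises and 13 falls in LETS1 cells (medians 0.09 and 0.15). GADD45B (2.33) and IER3 (1.53), early response genes, led the rises in Co.vec cells, and the chemokine gene CCL2 (1.57) and TNFAIP8 (1.16) those in LETS1 cells. The neutrophil chemokine genes CXCL2 (-2.18) and CXCL1 (-1.40) led the falls in Co.vec cells, and CXCL2 (-2.38) and the epithelial transcription factor gene ELF3 (-1.87) those in LETS1 cells. With LETS1 in buffer 16 of the 38 rose and 3 fell (median 0.24), where 8.57% of all tested genes rose and 6.56% fell (median 0.01), GADD45B (1.78) and CXCL8 (0.99) first among the rises and CX3CL1 (-2.46) and LCN2 (-1.38) among the falls. With LETS1 under TGF-β 9 rose and 4 fell (median 0.08), where 7.58% of all tested genes rose and 6.5% fell (median -0.00), and the falls numbered 2 without LETS1 TGF-β replicate 2. CXCL1 (0.87) and IL6 (0.77) led these rises, and CX3CL1 (-1.74) and LCN2 (-0.91; -0.73, adjusted p = 0.0595, without LETS1 TGF-β replicate 2) these falls.

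**Figure D4:**
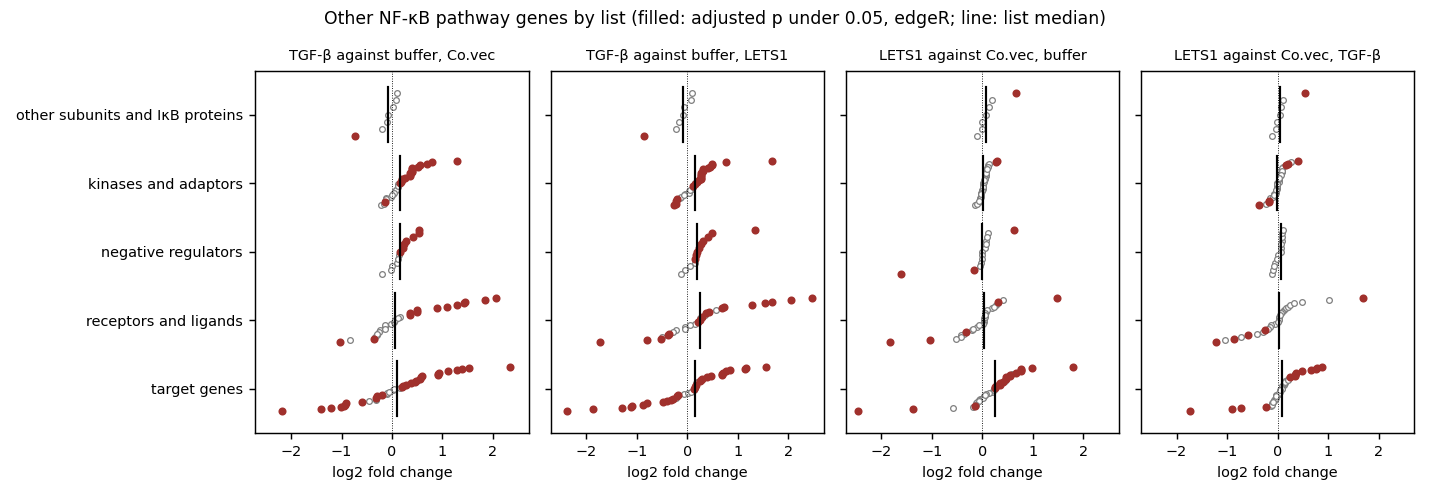
Log2 fold change (x axis) of 118 other pathway genes in 5 lists (y axis) in the 4 two-group comparisons (panels), 1 point per gene, filled where the adjusted p was under 0.05 in edgeR, with a line at each list's median. Target genes spread both ways with TGF-β, and kinases, adaptors and negative regulators lie mostly right of 0 there, with medians of 0.16 to 0.19.

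By the Euclidean distance of centred log2 CPM over the 12 libraries, among 13820 other genes with a mean CPM of at least 1, the 3 genes with a pattern most like that of RELB were PLEKHN1 (0.28), DAPK3 (0.28) and TLNRD1 (0.29), with log2 fold changes of 0.90, 0.79 and 0.79 with TGF-β in Co.vec cells. HTRA2 (0.18) and YJU2B (0.20) were among the 3 nearest to NFKBIA. Both fell by 0.26 with TGF-β in LETS1 cells, and neither passed in the other 3 comparisons.

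The 7 epithelial and A549 markers were detected in every library, at unlike levels. ALDH1A1 stood at 8868 to 10064 CPM and KRT8 at 4277 to 6672 CPM, but CDH1 at 66.7 to 100.0 CPM and EPCAM at 6.51 to 8.71 CPM. The summed CPM of the 7 was lowest in LETS1 cells in buffer (16155 to 16876, against 18311 to 21125 in the other groups). Leukocyte markers, of interest since immune cells express these members strongly, were at or near 0: PTPRC had at most 2 counts in a library, CD68 and CD3E at most 1, and CD3D, CD2 and MS4A1 were at 0 in all 12. Of 5 myeloid markers CD14 (1.28 to 2.68 CPM) and ITGAM (1.96 to 3.31 CPM) were the highest, and the summed level was 5.09 to 6.05 CPM in Co.vec buffer libraries and 4.12 to 4.52 with TGF-β, and 4.40 to 5.52 and 4.63 to 4.87 CPM in LETS1 cells. The part of these levels in the members' values was not tested. The 4 endothelial markers summed to at most 0.618 CPM in any library. The 6 fibroblast markers summed to 13.9 to 14.1 CPM in Co.vec buffer libraries and 121.6 to 130.2 with TGF-β, and to 19.8 to 24.4 and 135.4 to 151.9 CPM in LETS1 cells, of which COL1A1 alone reached 149.8 CPM while COL1A2, COL3A1 and DCN had at most 6 counts. In bulk RNA, fewer cells expressing a gene and less of its RNA per cell cannot be told apart.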

How the data were processed

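The authors deposited raw counts, whole fragments per gene, for 12 RNA-seq libraries. Per the submitters' processing notes, FastQC, cutadapt 2.10, STAR 2.7.5a and HTSeq 0.12.4 were used with GRCh38. For strand setting and annotation release, the sources used here give nothing. Fragments in no gene made up 2.81% to 3.53% and those matching several genes 10.1% to 10.9% of a library, and these summary rows were left out of library sizes. Fragments shared with overlapping genes are not in a gene's count.

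Symbols were matched by gene ID (60357 of 60676 rows), and coordinates and exon lengths came from GENCODE 29 (GRCh38). Genes kept by filterByExpr of edgeR 4.0.16 (R 4.3.3) numbered 16192. All 12 libraries entered 1 quasi-likelihood fit (TMM scaling, robust dispersion, a mean for each group), with Benjamini-Hochberg adjustment in each of 5 comparisons. SE was derived from the fold change and the F statistic, and 95% intervals are unadjusted. Alternatives were DESeq2 1.42.0, RLE scaling, omission of the low-count filter, a replicate block, a fit of the 6 libraries compared, and leaving out each library in turn. Whether replicate numbers pair libraries was checked by correlating deviations from group means: 0 of 18 same-number pairs exceeded 0.1 (-0.0573 to 0.0472), so libraries were treated as unpaired.

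The members and the gene lists were chosen with earlier results of these data known. GGAAATTCC was chosen after the NFKBIA and ICAM1 windows had been seen. Named were all 10 members, REL, the 3 IKK genes and, per list and comparison, up to 2 of the largest rises and falls with a mean CPM of at least 1. KLF6, NUAK2 and TAP1 were named after their values were seen. The symbol table gave 0 rows for 1 listed target, SOD2. The level of LETS1 was not analysed here, and 1 of the 3 genes nearest to NFKBIA is not reported here. Counts limit precision for counting error only, and amplified copies would widen it.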

Additional observations from a re-analysis of the deposited data

Results flagged for a closer look

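In edgeR the response to TGF-β differed between LETS1 and Co.vec cells for 8 of the 118 other pathway genes and for none of the 10 members. The same was so for 0.679% of all tested genes. The difference, LETS1 minus Co.vec on the log2 scale, was -1.64 for GADD45B (adjusted p = 3.58e-13), -0.69 for IER3 (0.000727), -0.66 for ELF3 (1.12e-07), -0.65 for ZC3H12A (0.000147), -0.51 for KLF6 (3.61e-05), -0.41 for NUAK2 (0.00149), 0.39 for IRAK2 (0.0364) and 0.38 for TAP1 (0.0243). IRAK2 did not pass with the replicate block (adjusted p = 0.0531) or without any 1 of 7 libraries (0.0673 to 0.218). TAP1 did not pass without any 1 of 6 libraries (0.0528 to 0.116): Co.vec buffer replicates 1 and 2, Co.vec TGF-β replicate 1, LETS1 buffer replicates 1 and 3, and LETS1 TGF-β replicate 1. The other 6 genes passed with every library left out in turn.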

How the results depend on the processing

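Of the members' values, no call changed with RLE size factors, with the 6 libraries compared alone or with the replicate block, under which 1, 2, 7, 8 and 0 members were called in the 5 comparisons, as without it. Over all genes the replicate block left 2297, 2158, 6251, 6136 and 106 calls, and among the pathway genes named in the text it ended the calls of IRAK2 in the interaction (adjusted p = 0.0531) and TLR1 for LETS1 with TGF-β (0.0507), with 119 other values keeping direction and side of the threshold. Only 5 of the 12 libraries matched best to their own number. DESeq2 ended 1 call, ICAM1 in Co.vec cells, and no filter added 1, NFKB2 in LETS1 cells. Leaving out 1 library at a time gave 1 called member for LETS1 in buffer, 1 to 3 for LETS1 with TGF-β, 6 to 7 for the ligand in Co.vec cells, 6 to 8 in LETS1 cells and 0 for the interaction. Over all genes, leaving out 1 library moved 2449 calls to between 1819 and 2611 for LETS1 in buffer, 2279 to between 1710 and 2401 with TGF-β, 6427 to between 5479 and 6477 and 6272 to between 5487 and 6485 for the ligand, and 110 to between 78 and 134 for the interaction. Values that did not pass and stood near 0 changed sign when 1 library was left out. For LETS1 against Co.vec these were NFKB2 (-0.0525 to 0.0556), BIRC3 (-0.0953 to 0.011) and REL (-0.0773 to 0.387) in buffer, and CHUK (-0.0611 to 0.0238), IKBKB (-0.077 to 0.021) and IKBKG (-0.0528 to 0.0335) with TGF-β. For the ligand in Co.vec cells these were NFKB2 (-0.0413 to 0.1068), NFKBIA (-0.0688 to 0.0374) and REL (-0.1799 to 0.2811), and in LETS1 cells REL (-0.2176 to 0.1065). For the interaction they were RELA (-0.0274 to 0.0442), RELB (-0.0565 to 0.08), NFKBIE (-0.0815 to 0.1729), TNFAIP3 (-0.1737 to 0.0436), ICAM1 (-0.1484 to 0.314), CHUK (-0.0229 to 0.0675) and REL (-0.3455 to 0.1195). The cause was not tested.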
